A study of Mus musculus with 12 samples.

Results

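Exons of protein-coding genes held 3978 of the 63309 regions of the accessibility table once regions near a transcription start site had been set aside. A region was taken as a member when any of its 500 bp overlapped an exon of a protein-coding gene in GENCODE vM21 and its midpoint lay over 1000 bp from every annotated start site. The members made up 6.28% of the regions and fell in 3017 genes. They were compared with 19647 intronic, 14802 intergenic and 22494 promoter regions, while 2388 further regions lay in noncoding genes only.

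The data were ATAC-seq profiles of invariant natural killer T (iNKT) cells from the thymus of untreated mice aged 8 to 9 weeks. The wild-type group was C57BL/6, and the other group was Hivep3-/-, which lacks the zinc finger protein HIVEP3 and had been backcrossed to C57BL/6. In each genotype 3 subsets, iNKT1, iNKT2 and iNKT17, were profiled with 2 libraries each, 12 libraries in all. The cells of each subset were sorted from pooled thymi, mixed for the transposition, and separated again by ICOS and CD138 alone, because the other surface markers did not survive the reaction. The sample titles number single mice, and nothing ties a number to a pool, so p-values measure the spread between these libraries, which may in part be technical. An exact permutation test of 2 against 2 libraries cannot go below p = 0.333, so the tests are limma models over all regions.

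In ATAC-seq a transposase inserts sequencing adapters where DNA is not wrapped tightly on nucleosomes, so the number of insertions in a region measures how open its chromatin is. Open regions inside genes and away from their promoters are often enhancers, and an enhancer can overlap a coding exon or an untranslated region (UTR) as well as an intron. iNKT cells recognize lipids presented by CD1d and split in the thymus into subsets that resemble helper T cells: iNKT1 cells depend on T-bet and make interferon-γ, iNKT2 cells express much PLZF and make interleukin-4, and iNKT17 cells make interleukin-17.

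The members below had the largest calls by a fixed rule and show the kinds of exonic region in question: a region open in iNKT1 cells (Cobll1), a region open in iNKT17 cells (Dhx37), a region that fell in Hivep3-/- iNKT1 cells (Armc8), a region that fell in Hivep3-/- iNKT2 cells (Akap6) and a region that rose in Hivep3-/- iNKT2 and iNKT17 cells (Camk2b). Each line holds the central 300 bases of the region from mm10, read 5′ to 3′ on the strand of its gene, with annotated exon in capitals and the rest in lower case. Cobll1 is chr2:65133803-65134102, Dhx37 chr5:125430606-125430905 and Armc8 chr9:99505020-99505319, all on the minus strand. Akap6 is chr12:52887380-52887679 on the plus strand, and Camk2b is chr11:6012012-6012311 on the minus strand.
Cobll1: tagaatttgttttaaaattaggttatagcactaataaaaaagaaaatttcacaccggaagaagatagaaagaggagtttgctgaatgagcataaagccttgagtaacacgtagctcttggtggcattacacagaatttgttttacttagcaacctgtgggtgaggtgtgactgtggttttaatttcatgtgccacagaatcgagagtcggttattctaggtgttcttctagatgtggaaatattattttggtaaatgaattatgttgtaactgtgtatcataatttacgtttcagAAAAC
Dhx37: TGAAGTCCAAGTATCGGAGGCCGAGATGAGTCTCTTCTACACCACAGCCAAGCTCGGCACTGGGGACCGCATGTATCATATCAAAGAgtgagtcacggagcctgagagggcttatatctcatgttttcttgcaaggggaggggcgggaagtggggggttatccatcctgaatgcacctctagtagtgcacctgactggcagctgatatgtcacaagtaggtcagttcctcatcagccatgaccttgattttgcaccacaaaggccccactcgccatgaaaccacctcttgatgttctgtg
Armc8: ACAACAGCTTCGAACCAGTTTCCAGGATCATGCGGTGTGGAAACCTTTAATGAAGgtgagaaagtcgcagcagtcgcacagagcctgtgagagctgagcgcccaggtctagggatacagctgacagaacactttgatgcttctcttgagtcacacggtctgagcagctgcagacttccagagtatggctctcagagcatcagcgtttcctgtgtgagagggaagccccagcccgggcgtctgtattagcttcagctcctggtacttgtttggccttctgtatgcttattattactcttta
Akap6: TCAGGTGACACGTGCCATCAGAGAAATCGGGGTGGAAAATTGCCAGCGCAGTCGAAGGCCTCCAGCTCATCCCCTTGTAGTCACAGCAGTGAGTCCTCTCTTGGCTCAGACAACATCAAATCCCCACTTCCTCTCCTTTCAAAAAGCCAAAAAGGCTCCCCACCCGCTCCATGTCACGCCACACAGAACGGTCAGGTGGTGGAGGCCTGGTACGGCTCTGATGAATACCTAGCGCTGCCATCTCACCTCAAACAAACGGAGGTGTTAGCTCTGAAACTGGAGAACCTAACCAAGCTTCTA
Camk2b: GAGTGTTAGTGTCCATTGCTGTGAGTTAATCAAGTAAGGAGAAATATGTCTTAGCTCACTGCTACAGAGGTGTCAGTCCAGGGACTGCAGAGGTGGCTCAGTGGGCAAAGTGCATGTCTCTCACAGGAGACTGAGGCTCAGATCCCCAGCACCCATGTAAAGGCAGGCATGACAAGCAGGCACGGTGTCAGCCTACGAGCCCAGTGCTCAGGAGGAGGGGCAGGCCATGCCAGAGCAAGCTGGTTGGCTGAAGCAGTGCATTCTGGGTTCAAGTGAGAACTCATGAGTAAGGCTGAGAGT
The letters AGGTGTGA of a T-box site stood at bases 163 to 170 of the Cobll1 sequence, in the intron beside the exon. A match to TNGGTCA, the core of a ROR element, stood at bases 217 to 223 of the Dhx37 sequence, also outside the exon. The Akap6 sequence was coding throughout, and the Camk2b sequence was exon of transcripts that are not annotated as protein-coding.

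Values in the table are log2 of normalized insertions per kilobase, and the values below are on this scale unless a linear level is named. The median over members was similar in the 12 libraries, at 3.40 to 3.55, and the members held 4.02 to 4.22% of the summed linear signal of each library. Depth is unknown, since the files hold no read counts. In such bulk libraries a region open in fewer cells and a region less open per cell cannot be told apart. The lowest value differed between libraries, from -4.31 to -2.58, and 5 to 60 members stood at it in a library, so no fold change is given where both libraries of a group were at it. Of 12 marker genes, 10 had their highest summed accessibility in the subset they mark in both genotypes, and the exceptions, Il2rb and Il17rb, were highest in iNKT17 cells. Hivep3 held 21 regions, none of them a member and none called between the genotypes, with log2 changes of -0.79 to 1.31, and where the allele is disrupted was not given in the sources used here.

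Few members were made of exon alone. Only 1318 (33.1%) lay wholly in exon, and the median member had 237 exonic bases. The midpoint was in coding sequence in 867 members, in a 3′ UTR in 940, in a 5′ UTR in 35, in an exon of a noncoding transcript in 420, and outside the exon in 1716. Coding sequence was touched by 2527 (63.5%), and a last exon by 2077 (52.2%). The median distance to a start site was 4284 bp, and 895 members (22.5%) lay over 10 kb away.

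In base composition and level the members were close to the other regions away from promoters. Median GC content was 50.6%, against 47.4% in introns, 47.8% between genes and 58.4% at promoters, and it rose to 55.4% where the midpoint was coding. The median linear level over all libraries was 11.5 insertions per kilobase, against 10.9, 11.1 and 32.4 in the same 3 classes. Most genes held a single member (2284 genes), 528 held 2, and 23 held 5 or more. Myh9, which encodes a nonmuscle myosin heavy chain, had the most with 7 members, followed by Ccdc162, the chromatin remodeler gene Chd7 and Zfyve28 with 6 each.

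Subset preference was read in C57BL/6 cells first. A member was counted as open in 1 subset only when it was higher there than in each of the other subsets by 3-fold or more with an adjusted p below 0.1. By this rule 215 members were open only in iNKT1 cells, 190 only in iNKT2 cells and 247 only in iNKT17 cells, which is 6.30%, 5.59% and 7.24% of the members tested. Over all tested regions the shares were 5.26%, 3.87% and 6.86%. Introns had 7.50%, 5.62% and 10.5%, and promoters 1.46%, 1.02% and 2.11%. The exonic shares thus stood between those of introns and promoters in iNKT1 and iNKT17 cells and beside that of introns in iNKT2 cells, differences that were described and not tested.

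**Figure D1:**
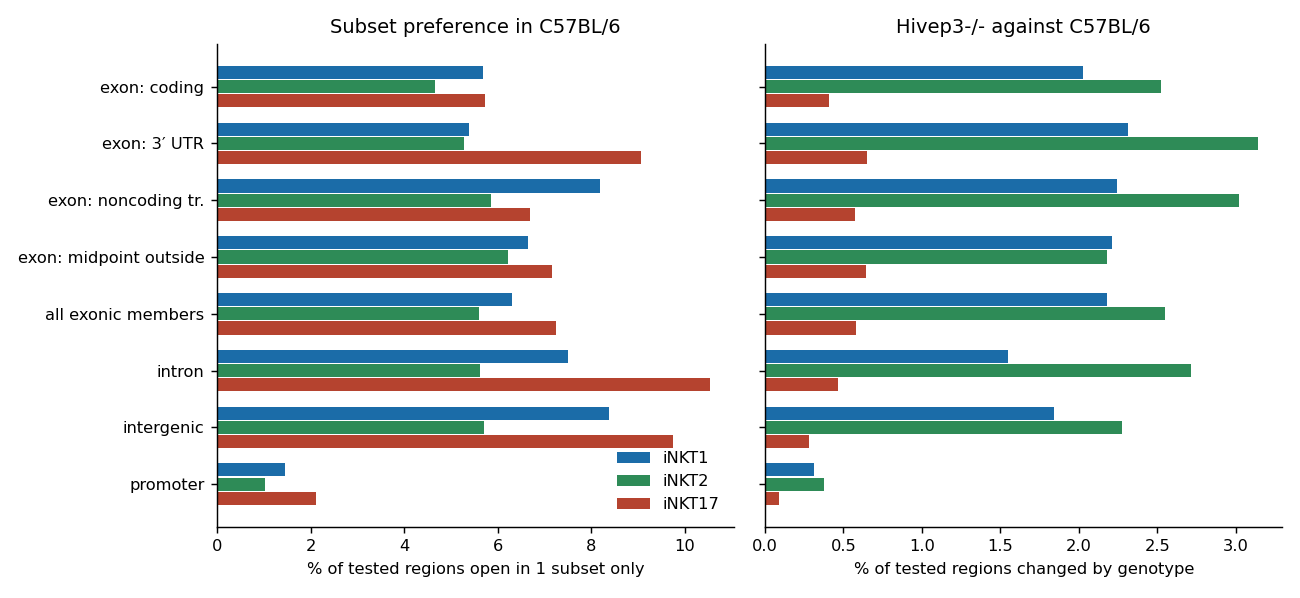
Bars give the percentage of tested regions open in 1 subset only in C57BL/6 cells (left) and changed between the genotypes (right), for each subset, with exonic members also split by what lies at their midpoint. Exonic members reach 7.24% in iNKT17 cells on the left and 2.55% in iNKT2 cells on the right, while promoters stay at or under 2.11%.

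Members with a coding midpoint were open only in iNKT1 cells in 5.67% of cases and in iNKT2 cells in 4.65%, and those centered in a 3′ UTR in 5.39% and 5.28%. In iNKT17 cells the 3′ UTR share was 9.06% and the coding share 5.73%. The libraries of the preferred subset lay above all 4 libraries of the other subsets in all 215, 190 and 247 members. The sets were chosen on these same libraries, so this is not separate support. Their median log2 levels were 3.91 (iNKT1), 3.67 (iNKT2) and 4.09 (iNKT17), and the medians of the next highest subset were 1.33, 1.38 and 0.50.

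Members open only in iNKT1 cells were led by Cobll1, which encodes a protein related to the actin regulator cordon-bleu, at chr2:65133703-65134202 with 105 coding bases. Its C57BL/6 iNKT1 libraries were at 2.93 and 2.91, its iNKT2 libraries at -3.79 and -4.31, and both iNKT17 libraries at the lowest value of -4.05. Cmklr1, the receptor for the chemoattractant chemerin, held a pair of such members. The stronger one, at chr5:113639117-113639616, was at 5.13 and 5.04 in iNKT1 cells, -2.16 and -1.72 in iNKT2 cells and -0.59 and -3.02 in iNKT17 cells. It was higher in iNKT1 cells by 7.02 ± 0.70 (SE) against iNKT2 and 6.89 ± 0.70 against iNKT17 cells (limma, adjusted p = 3.3e-06 and 2.17e-06). The weaker one, in the 3′ UTR at chr5:113612908-113613407, was at 3.14 and 2.83 in iNKT1 cells and at or under -3.02 in the other C57BL/6 libraries. Fgr, a kinase of the Src family, was at 3.51 and 3.70 in iNKT1 cells against -1.91 or less elsewhere (difference from iNKT2 cells 6.14 ± 0.90, adjusted p = 8.6e-05). Srbd1, Capn7 (a calpain protease gene) and Arhgap26 (a GTPase-activating protein gene) completed the leading 8 with Klrd1.

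Genes of the type 1 effector program held 32 members in 20 genes, and 11 of these were open only in iNKT1 cells, against 5.26% over all regions. Receptors of the natural killer gene complex on chromosome 6 gave 4 of them. Klrd1 encodes CD94, and its member at chr6:129597890-129598389 was at 3.78 and 3.58 in iNKT1 cells, at -2.52 and -3.79 in iNKT2 cells and at the lowest value in both iNKT17 libraries. Klrk1, the activating receptor NKG2D, was at 3.31 and 2.83 in iNKT1 cells against -2.39 or less in the other C57BL/6 libraries. Klrc1, the partner of CD94, was at 2.81 and 2.39 against -1.91 or less. Klre1 was at 4.41 and 4.33 against -0.40 to 0.51, a difference of 4.32 ± 0.53 from iNKT2 cells (adjusted p = 2.05e-05). In each of these receptor genes the iNKT1 libraries stood apart from the other C57BL/6 libraries, on which the members had been chosen.

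Secreted effectors and receptors of the same program followed. Xcl1, a chemokine of killer lymphocytes, had a member with a coding midpoint at chr1:164931572-164932071. It was at 4.39 and 4.81 in iNKT1, -1.06 and -0.55 in iNKT2 and -4.05 and -3.02 in iNKT17 cells, higher by 5.40 ± 0.73 than in iNKT2 cells (adjusted p = 4.48e-05). The granzyme gene Gzmb held a pair of members, and the one at chr14:56260543-56261042 was at 4.38 and 4.18 in iNKT1, -3.79 and -0.67 in iNKT2 and 0.39 and 0.35 in iNKT17 cells. Il18rap, a chain of the interleukin-18 receptor, was at 4.26 and 4.13 in iNKT1 cells against 0.61 to 1.06 elsewhere. Itga1, the collagen-binding integrin chain CD49a, was at 5.07 and 5.08 against -0.61 to 1.96, and the chemokine receptor gene Cxcr3 at 4.35 and 4.25 against -0.78 to 2.47. The Tec family kinase gene Txk was at 5.40 and 5.15 against 3.17 to 3.68. It was the member of the 11 that did not meet the rule in Hivep3-/- cells.

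Members in T cell receptor signaling and chromatin genes were counted in the same way, beside 5.26% (iNKT1), 3.87% (iNKT2) and 6.86% (iNKT17) over all regions. Of 28 members in T cell receptor signaling genes, 3 were open only in iNKT1 cells (among them the related kinases Txk and Tec), 2 only in iNKT2 cells (among them Plcg1) and 2 only in iNKT17 cells (Fyn and Grap2). The Fyn member, in the 3′ UTR of this Src family kinase gene, was at 5.03 in both iNKT17 libraries and at 1.39 to 2.47 elsewhere. Of 24 members in chromatin regulators, 4 were open only in iNKT1 cells (a pair in Chd7, and Arid1a and Ep400), 1 only in iNKT2 cells (Hdac4) and 1 only in iNKT17 cells (Cabin1). The stronger Chd7 member was at 5.59 and 5.53 in iNKT1 cells and at 1.71 to 2.39 elsewhere.

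Members open only in iNKT2 cells were led by Nos1, the neuronal nitric oxide synthase, at chr5:117903558-117904057, with 4.28 and 4.12 in iNKT2, -3.12 and 0.99 in iNKT1 and -1.06 and -0.88 in iNKT17 cells. Its iNKT1 libraries differed widely from each other, and both lay under the iNKT2 libraries (difference 5.26 ± 0.92, adjusted p = 0.000363). Ttc3, a ubiquitin ligase gene, had the highest level of the leading 8. Its member was at 5.69 and 5.88 in iNKT2, 2.00 and 2.03 in iNKT1 and 1.66 and 1.25 in iNKT17 cells, and was higher by 3.77 ± 0.29 than in iNKT1 cells (adjusted p = 4.22e-07). Pkp1, which encodes the desmosomal protein plakophilin-1, was at 5.25 and 5.30 in iNKT2 cells, 0.92 and 1.60 in iNKT1 and 0.28 and -0.09 in iNKT17 cells. Akap6, Apol6 and the centrosomal gene Alms1 were also among them, with C57BL/6 iNKT2 libraries between 2.96 and 3.86.

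The type 2 effector list held 46 members in 24 genes, and 1 of these, in Lef1, was open only in iNKT2 cells, against 3.87% over all regions. Lef1, a partner of β-catenin in early T cells, was at 4.35 and 4.62 in iNKT2, 2.35 and 2.45 in iNKT1 and 0.49 and 0.64 in iNKT17 cells. Of the same list 2 members were open only in iNKT1 cells (among them Pdcd1) and 1 only in iNKT17 cells (Nr4a1). Pdcd1, the inhibitory receptor PD-1, was at 4.26 and 4.52 in iNKT1, 2.10 and 2.66 in iNKT2 and 1.35 and 1.79 in iNKT17 cells. Outside the list, the growth factor receptor gene Flt3 held a pair of members open only in iNKT2 cells, the stronger at 4.86 and 4.59 against 2.19 to 2.80. Flt3 stood on the myeloid and dendritic cell list, of which 5 of 10 genes had a region, with a summed linear level of 240 to 241 in C57BL/6 iNKT17, 302 to 314 in iNKT2 and 314 to 321 in iNKT1 libraries. The part of such cells in the Flt3 values was not tested.

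Members open only in iNKT17 cells had the highest median level of the 3 sets. Dhx37, an RNA helicase gene, led at chr5:125430506-125431005 with 7.57 and 7.62 in iNKT17, -0.42 and -2.39 in iNKT1 and -3.79 and -1.59 in iNKT2 cells. It was higher by 9.00 ± 0.68 than in iNKT1 and by 10.3 ± 0.68 than in iNKT2 cells (adjusted p = 1.51e-07 and 9.89e-08). Its mean linear level in C57BL/6 iNKT17 cells was 193 insertions per kilobase. Pex26, which anchors the peroxisomal import machinery, was at 6.36 and 6.49 in iNKT17 cells and at -0.94 or less in the other C57BL/6 libraries. Snx1, a sorting nexin gene, was at 5.77 and 5.65 in iNKT17 cells, at -3.79 and -2.39 in iNKT2 cells and at the lowest value in both iNKT1 libraries. Ubap1l was at 5.50 and 5.62 in iNKT17 cells against -1.72 or less in the others. Tmem132d, Stxbp4, Ksr2 and Cpe, with 3.92 to 4.83 in iNKT17 cells, had both C57BL/6 iNKT1 libraries at the lowest value.

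The type 17 effector list held 30 members in 20 genes, and 10 were open only in iNKT17 cells, against 6.86% over all regions. Il23r, the receptor for interleukin-23, had a member with a coding midpoint at chr6:67490452-67490951, 1154 bp from the start site. It was at 3.32 and 3.02 in iNKT17 cells, at the lowest value in both iNKT1 libraries and at -4.31 and -3.79 in iNKT2 cells. Il22, a cytokine gene that acts on epithelia, was at 6.23 and 6.25 in iNKT17, -3.12 and -2.39 in iNKT1 and -0.17 and -1.35 in iNKT2 cells. Actn2, an α-actinin gene, held a pair, and its stronger member was at 7.41 and 7.30 in iNKT17 cells against 0.36 to 1.66 elsewhere (difference from iNKT1 cells 5.78 ± 0.24, adjusted p = 1.39e-09). The leukotriene receptor gene Ltb4r1 was at 6.48 and 6.46 against 3.43 to 4.35. Tmem176a, Il17re and Pxdc1 were also among the 10.

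**Figure D2:**
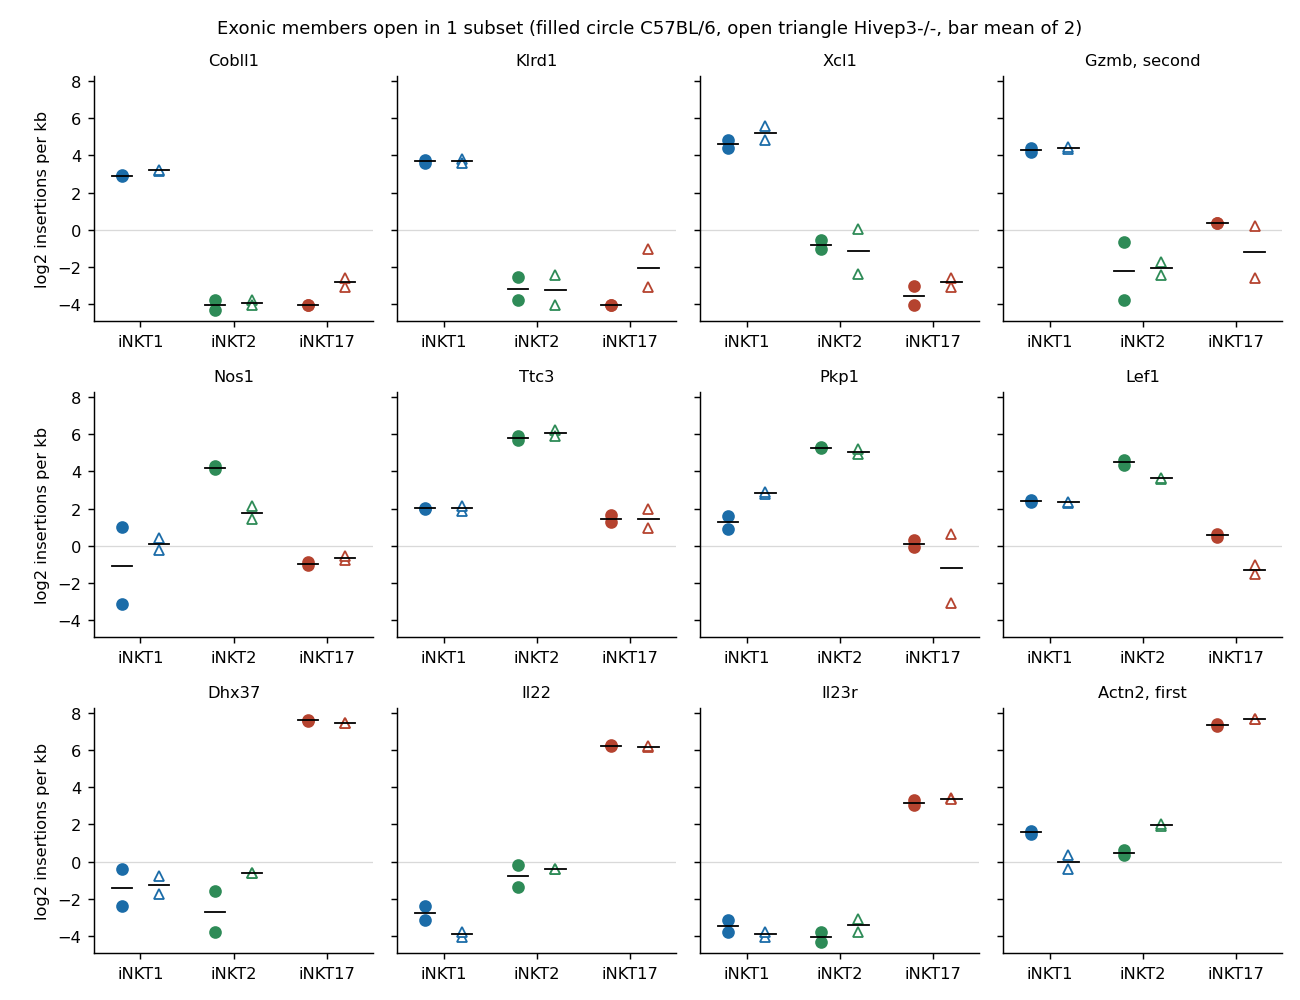
Each panel shows 1 exonic member with log2 insertions per kilobase on the vertical axis and the 3 subsets on the horizontal axis, filled circles for the 2 C57BL/6 libraries, open triangles for the 2 Hivep3-/- libraries and bars for their means. The preferred subset has the highest mean in both genotypes in all 12 panels, with Nos1 at 4.28 and 4.12 in C57BL/6 and 1.44 and 2.12 in Hivep3-/- iNKT2 cells.

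Subset preference was read again in Hivep3-/- cells, whose libraries gave none of the C57BL/6 group means above. The limma model took its estimate of the spread from the libraries of both genotypes, so the readings were not independent. In Hivep3-/- cells the rule was met by 247 (iNKT1), 199 (iNKT2) and 218 (iNKT17) members, beside 6.11%, 3.86% and 6.29% of all regions tested. Of the members open only in C57BL/6 iNKT1 cells 171 met the rule in both genotypes, which is 79.5% of the C57BL/6 and 69.2% of the Hivep3-/- members. In iNKT17 cells 197 did so (79.8% and 90.4%). In iNKT2 cells 107 did so (56.3% and 53.8%). Over all regions the shares of the C57BL/6 set were close to these, at 78.8% in iNKT1, 81.2% in iNKT17 and 54.4% in iNKT2 cells. The Hivep3-/- mean was highest in the same subset for 214 of the 215, 174 of the 190 and 247 of the 247 members (iNKT1, iNKT2 and iNKT17), beside 99.9%, 93.6% and 99.6% over all regions. Both Hivep3-/- libraries of that subset lay above all other Hivep3-/- libraries in 213, 165 and 243 of them (99.1%, 86.8% and 98.4%, beside 99.6%, 89.3% and 98.6% over all regions). Among the leading iNKT2 members, Pkp1 (4.94 and 5.18 in Hivep3-/- iNKT2 cells) and Ttc3 (6.20 and 5.93) met the rule in both genotypes. Nos1, Akap6, Apol6 and Alms1 met it in C57BL/6 cells. All 8 leading members of iNKT1 and all 8 of iNKT17 cells met it in both genotypes, as did 10 of the 11 type 1 and all 10 type 17 members counted above.

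Letters of known binding sites were counted in the members, on both strands of the 500 bp. The T-box site AGGTGTGA was found in 2.94% of all members and in 12.1%, 1.05% and 2.02% of those open only in iNKT1, iNKT2 and iNKT17 cells. The Runt site AACCACA was found in 18.7% of all members and was more frequent in all 3 sets, at 29.3%, 21.6% and 25.9% in the same order. The TCF site ATCAAAG, in 8.77% of all members, was found in 6.51%, 16.8% and 13.0%. The letters TNGGTCA, in 19.6% of all members, were found in 16.7%, 14.7% and 47.8%. Introns showed similar shares in the same sets, at 11.7% for the T-box site, 19.0% for the TCF site and 44.4% for the ROR core. The CTCF core was found in 9.43% of members and 4.61% of intronic regions, and in 0.93% to 2.83% of members open in 1 subset only. The NFAT site TTTTCCA was in 10.5% of all members and 9.77 to 12.6% of the 3 sets. The NF-κB site GGANTTTCC was in 2.49% and 1.58 to 2.83%. The ETS site CAGGAAGT, in 10.7% of all members, was found in 14.4%, 8.95% and 8.10% of the iNKT1, iNKT2 and iNKT17 sets. The bZIP site TGANTCA, in 15.0% of all members, was found in 14.9%, 19.5% and 20.6% of them. Over all 63309 regions the shares were 2.91% for the T-box, 17.4% for the Runt, 7.99% for the TCF and 18.6% for the ROR letters. A match describes the sequence and does not show that a factor was bound.

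**Figure D3:**
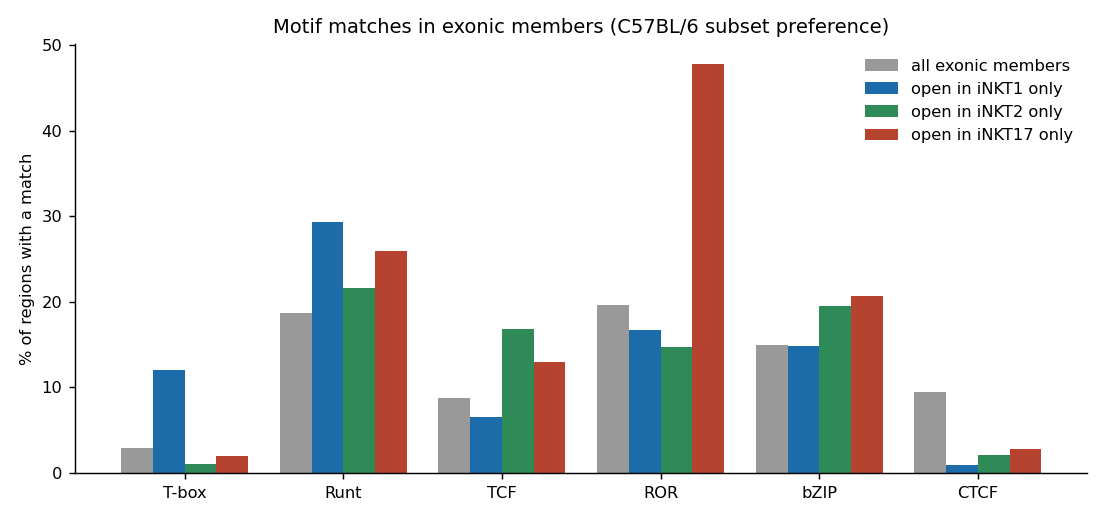
Bars give the percentage of 500-bp regions with at least 1 motif match on either strand, for all 3978 exonic members and for those open in 1 subset only in C57BL/6 cells. The ROR bar of the iNKT17 set reaches 47.8% and the T-box bar of the iNKT1 set 12.1%, while the CTCF bars of the 3 sets stay at or under 2.83%.

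Most genes with such a member had no promoter region with the same preference. Of 181 genes with a member open only in iNKT1 cells and with a promoter region in the table, 18 (9.94%) also had a promoter region open only in iNKT1 cells, against 2.55% of the 2508 genes holding any member and a promoter region. For iNKT17 cells it was 27 of 195 genes (13.8%, against 3.19%). For iNKT2 cells it was 2 of 153 genes (1.31%, against 1.16%), Akap6 and Ppic. Genes with a pair or more of members open in 1 subset included Myo6 in iNKT1 cells (4 members of 4), Ppic in iNKT2 cells (3 of 3) and Gabpb2 (4 of 5), Cask (3 of 5) and Tomm34 (3 of 3) in iNKT17 cells.

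The genotypes were then compared within each subset, with members tested when either group had a linear mean of at least 5. In iNKT1 cells 72 of 3306 members changed, 49 higher and 23 lower in Hivep3-/- cells, beside 1.15% of all regions called (0.89% higher and 0.264% lower). In iNKT2 cells 87 of 3409 changed, 22 higher and 65 lower, beside 1.68% of all regions (0.474% and 1.2%). In iNKT17 cells 19 of 3285 changed, 8 higher and 11 lower, beside 0.271% (0.133% and 0.138%). Exonic members were thus called in 2.18%, 2.55% and 0.58% of cases, intronic regions in 1.55%, 2.71% and 0.46%, and promoters in 0.31%, 0.38% and 0.09%. On the average of the subsets 15 members rose and 25 fell, beside 0.202% and 0.327% of all regions. In all called members the libraries of the genotypes did not overlap. The members were called on these same libraries, so this is not separate support.

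The called members had modest levels. The median linear mean of the higher genotype was 12.1 (iNKT1), 11.8 (iNKT2) and 10.0 (iNKT17), and that of the lower genotype 3.07, 2.58 and 2.46. After 5 was added to the linear values, 6, 8 and 0 members were called, 3 of the 6 higher in iNKT1 and 1 of the 8 higher in iNKT2 cells. In iNKT17 cells, where limma then called 0 of 3285 tested members, 321 had an adjusted p under 0.1 but changed by under 3-fold. An unadjusted limma p under 0.05 was reached by 711 members. Of the calls in iNKT1 cells 68.1% were rises, which became 56.7% (68 of 120) with no filter on low levels, 57.7% when the mean over the 12 libraries had to reach 5, and 80.5% (33 of 41) with midpoints inside an exon. In iNKT2 cells the 22 rises and 65 falls became 45 and 82 with no filter, 29 and 45 with the filter on the mean, and 97 and 125 at 2-fold. In iNKT17 cells the majority turned under 3 alternatives, as the 8 rises and 11 falls became 14 and 12 with the filter on the mean, 7 and 3 with midpoints inside an exon, and 15 and 10 without replicate 2 of C57BL/6 iNKT17. They became 5 and 14 without replicate 2 of Hivep3-/- iNKT17. Leaving out replicate 2 of Hivep3-/- iNKT1 reduced the iNKT1 count to 47. The iNKT17 count was 12 without replicate 1 of C57BL/6 iNKT17 and 30 without replicate 1 of Hivep3-/- iNKT17.

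**Figure D4:**
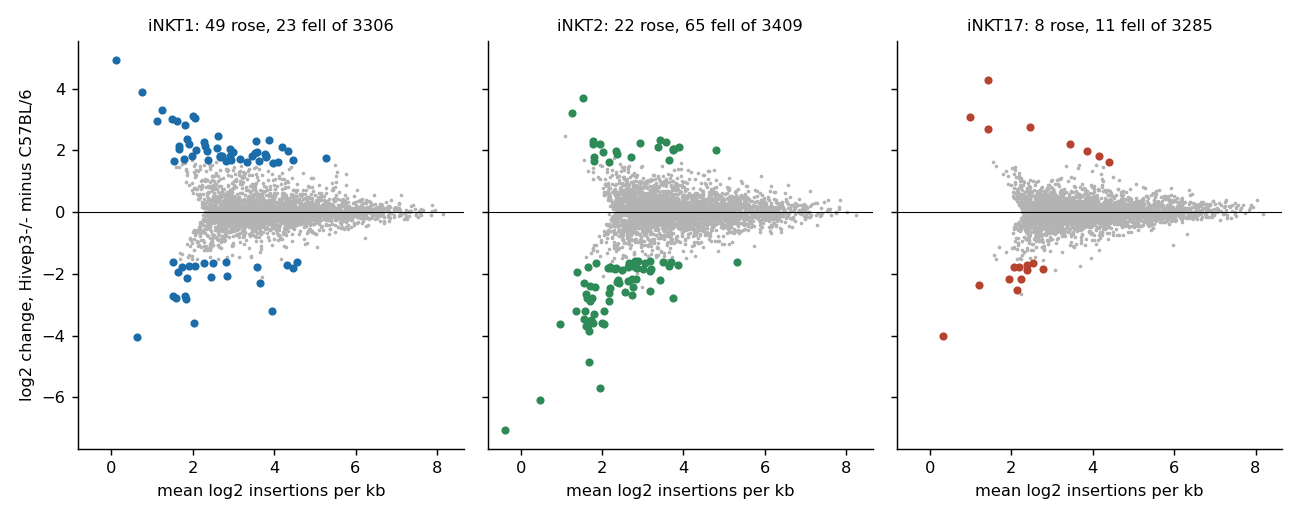
Each point is 1 tested exonic member, with the mean log2 insertions per kilobase of the 4 libraries of a subset on the horizontal axis and the log2 change of Hivep3-/- against C57BL/6 on the vertical axis, called members in color. Called members number 49 above and 23 below zero in iNKT1, 22 and 65 in iNKT2, and 8 and 11 in iNKT17 cells, and the lowest iNKT2 point is an Akap6 member with both Hivep3-/- libraries at the lowest value.

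In all 3 subsets 6 members changed, of 16 such regions in the whole table. The subsets share no library, although their cells came from common pools and all 12 libraries gave 1 common estimate of the spread. Camk2b, a subunit gene of a calcium-dependent kinase, held 2 members, and both rose. The first, at chr11:6011912-6012411, was at 2.75 and 2.65 in C57BL/6 and 4.97 and 5.12 in Hivep3-/- iNKT1 cells. In iNKT2 cells it went from -0.55 and -0.10 to 2.89 and 3.87, and in iNKT17 cells from -1.91 and 0.44 to 3.78 and 3.35. The rises were 2.35 ± 0.56, 3.70 ± 0.56 and 4.30 ± 0.56 (adjusted p = 0.0249, 0.00145 and 0.00338). The second, at chr11:6013265-6013764, rose by 1.82 ± 0.29, 2.31 ± 0.29 and 2.75 ± 0.29 (adjusted p = 0.00216, 0.000448 and 0.000807). Hivep3-/- libraries were above C57BL/6 libraries of the same subset at both positions. The call of the first in iNKT1 cells was lost without any 1 of the 4 iNKT1 libraries (adjusted p = 0.11 to 0.174).

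Ifrd1, an interferon-related developmental regulator gene, held 5 members, and 3 neighbors at its 3′ end rose in all subsets. They lie side by side between bases 40201091 and 40202728 of chromosome 12 and are not independent. The middle one was at 2.13 and 2.94 against 3.75 and 4.55 in iNKT1, 1.58 and 2.94 against 3.96 and 5.25 in iNKT2, and 2.52 and 3.25 against 4.61 and 5.10 in iNKT17 cells. The rises over the 3 neighbors ranged from 1.61 to 2.35 with adjusted p of 0.00874 to 0.0728. Replicate 2 was the higher in each group, and all 3 calls in iNKT1 cells were lost without replicate 2 of Hivep3-/- iNKT1 (adjusted p = 0.395 to 0.494) or without replicate 1 of C57BL/6 iNKT1. The 3 calls in iNKT17 cells were lost without replicate 1 of C57BL/6 iNKT17 or replicate 2 of Hivep3-/- iNKT17, and those in iNKT2 cells without replicate 1 of C57BL/6 iNKT2. The other 2 Ifrd1 members changed by -0.36 to 0.16 and were not called. Pus7, a pseudouridine synthase gene, was the member that fell everywhere, at chr5:23746175-23746674. It went from 3.34 and 3.13 to 0.40 and 0.44 in iNKT1, from 2.88 and 2.69 to -0.88 and -0.78 in iNKT2, and from 2.83 and 1.93 to 0.57 and -0.55 in iNKT17 cells, falls of 2.81 ± 0.43, 3.62 ± 0.43 and 2.37 ± 0.43 (adjusted p = 0.00176, 0.000334 and 0.0154).

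A further 15 members changed in 2 subsets, of 107 such regions in the whole table. Of the 15 members, 12 fell, 1 rose and 2 moved in opposite directions. Armc8, a subunit gene of a ubiquitin ligase, fell by 4.05 ± 0.63 in iNKT1 cells, from 2.63 and 2.69 to -2.39 and -0.39, and by 3.61 ± 0.63 in iNKT2 cells, from 3.84 and 3.74 to 0.78 and -0.41 (adjusted p = 0.0021 and 0.00333). Prdm10, a zinc finger gene, fell by 3.67 ± 0.57 in iNKT2 and 4.01 ± 0.57 in iNKT17 cells, from 2.60 and 2.05 to -0.78 and -2.58 in the latter (adjusted p = 0.00578). Of these, 1 Hivep3-/- iNKT17 library was at its lowest value. Vdr, the vitamin D receptor, fell in its 3′ UTR by 2.66 ± 0.35 in iNKT2 and 1.87 ± 0.35 in iNKT17 cells. Trio, a guanine nucleotide exchange factor gene, fell by 1.70 ± 0.23 in iNKT1 and 2.54 ± 0.23 in iNKT2 cells. The first BC004004 member fell the most among these, from 4.84 and 4.77 to -0.40 and -1.38 in iNKT2 cells (5.70 ± 0.38, adjusted p = 1.32e-05) and from 5.40 and 5.69 to 2.24 and 2.45 in iNKT1 cells. Ryr3, Gys2, Dppa4, Asb2 and Pde6a also fell in 2 subsets. Ahnak, a large scaffold protein gene, was the one that rose in 2 subsets. When single libraries were left out, the call was lost for Ryr3, Trio, Pde6a, Asb2 and Ahnak in iNKT1 cells and for Dppa4, Gys2, Vdr and Asb2 in iNKT17 cells.

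Ccr9, the chemokine receptor of gut-homing lymphocytes, held 2 members, and both fell in iNKT1 and iNKT2 cells. Both lie in an exon of a noncoding transcript, close enough to share fragments. The one at chr9:123768947-123769446 went from 3.10 and 2.86 to 0.49 and -0.10 in iNKT1 cells and from 2.92 and 3.11 to 0.90 and -0.41 in iNKT2 cells, falls of 2.78 ± 0.51 and 2.77 ± 0.51 (adjusted p = 0.00577 and 0.00427). In iNKT17 cells it was at -0.10 and 0.10 in C57BL/6 and at the lowest value in both Hivep3-/- libraries, and it was not tested there. The other fell by 1.94 ± 0.43 and 2.88 ± 0.43 (adjusted p = 0.0159 and 0.00128), and was at 0.39 and 1.79 against 1.10 and 1.47 in iNKT17 cells. Its iNKT1 call was lost without replicate 2 of either genotype (adjusted p = 0.117 and 0.149) and with a pseudocount of 1.

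All 3 members of Drosha, the nuclease that starts microRNA processing, fell in iNKT1 cells. The one with the highest level, at chr15:12923776-12924275, was at 4.86 and 4.72 in C57BL/6 and 2.67 and 2.35 in Hivep3-/- iNKT1 cells, a fall of 2.28 ± 0.16 (adjusted p = 9.84e-06). In iNKT2 cells it was at 5.85 and 5.79 against 5.76 and 5.76, and in iNKT17 cells at 4.15 and 4.04 against 3.13 and 2.79. The neighbor at chr15:12925619-12926118 fell by 3.58 ± 0.59, from 3.98 and 3.68 to 0.40 and 0.10 (adjusted p = 0.00297), and the third by 2.74 ± 0.47, from 2.87 and 2.88 to 0.40 and -0.12 (adjusted p = 0.00411). Each of these falls in iNKT1 cells exceeded the spread of the libraries. The microRNA processing list had 7 tested members in iNKT1 cells, and these 3 were the ones called, beside 0.264% of all regions lower, so the count of the list rests on Drosha.

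The rises in iNKT1 cells were led by Kdelr2, a receptor that returns proteins to the endoplasmic reticulum. Its member at chr5:143419476-143419975 went from -0.94 and -3.79 to 2.39 and 2.75, a rise of 4.94 ± 0.77 (adjusted p = 0.00194), and 1 of its C57BL/6 libraries was at the lowest value. Bpgm, a glycolytic side-branch enzyme of red cells, rose in its 3′ UTR from -1.72 and -0.67 to 2.57 and 2.84 (3.90 ± 0.44, adjusted p = 0.000234). Tmem108 went from -0.42 and -0.41 to 2.67 and 3.11, and Spesp1 from -0.42 and 1.44 to 3.32 and 3.83. The Tmem108 call was lost without 1 library (adjusted p = 0.131). The phospholipase gene Pla1a held 2 members, and both rose, by 3.13 ± 0.56 and 2.95 ± 0.85 (adjusted p = 0.0048 and 0.0582). In these 6 members both Hivep3-/- iNKT1 libraries stood above both C57BL/6 ones, and the second Pla1a call was lost without any 1 of the 4 libraries (adjusted p = 0.137 to 0.332). The AP-1 site TGANTCA of bZIP factors was found in 19 of the 49 members that rose (38.8%), against 15.0% of all members and 15.9% of all regions. The TCF letters were found in 12 of the 49 (24.5%, against 8.77% of all members). The T-box (6.12% against 2.94%) and ETS sites (16.3% against 10.7%) were also more frequent. The Runt (20.4% against 18.7%), ROR (20.4% against 19.6%), NFAT (10.2% against 10.5%) and NF-κB sites (2.04% against 2.49%) were near the shares of all members. The CTCF core was found in 0. Among the 65 members that fell in iNKT2 cells, Runt matches were in 32.3%, bZIP and ROR in 23.1% each, NFAT in 15.4% and TCF in 13.8%. There the ETS site was in 6.15%, the CTCF core in 3.08%, and the T-box and NF-κB sites in 1.54% each. Among the 22 that rose in iNKT2 cells, Runt matches were in 27.3% and bZIP matches in 9.09%.

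Regulators of NF-κB held 18 members in 10 genes, and 2 of 16 tested rose in iNKT1 cells, beside 0.89% of all regions. Map3k14, the NF-κB-inducing kinase, rose in its 3′ UTR from 4.25 and 4.52 to 6.10 and 6.21 (1.77 ± 0.16, adjusted p = 5.81e-05). Tnip1, which binds the inhibitor A20, rose from 3.13 and 3.21 to 4.67 and 4.88 (1.61 ± 0.20, adjusted p = 0.000498). The Tnip1 change came under 3-fold and the call was lost without replicate 1 of C57BL/6 iNKT1 or replicate 2 of Hivep3-/- iNKT1 and with a pseudocount of 1, which left Map3k14. In iNKT2 cells Map3k14 was at 4.77 and 5.31 against 4.90 and 4.82, and Tnip1 at 4.40 and 4.55 against 4.36 and 4.48. In iNKT2 and iNKT17 cells limma called 0 of 18 and 0 of 17 tested members of the list, beside 1.68% and 0.271% of all regions. An unadjusted limma p under 0.05 was reached by 4 and 10 of them, beside 25.3% and 15.8% of all regions. The median change over the list was 0.30, 0.24 and 0.47 in iNKT1, iNKT2 and iNKT17 cells, beside -0.02, 0.00 and -0.01 over all regions tested.

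In iNKT2 cells the 65 falls outnumbered the 22 rises. Akap6, which anchors protein kinase A, had a member wholly in coding sequence, at chr12:52887280-52887779. It was at 3.27 and 3.04 in C57BL/6 iNKT2 cells and at the lowest value in both Hivep3-/- iNKT2 libraries (adjusted p = 0.00136). In C57BL/6 cells it was higher in iNKT2 than in iNKT17 cells by 6.22 ± 1.06 (limma, adjusted p = 0.000289). The second Akap6 member fell by 3.31. Hspa12b, of the HSP70 family, went from 3.32 and 3.70 to -3.79 and -1.38 in iNKT2 cells, with 1 Hivep3-/- library at the lowest value (6.09 ± 0.80, adjusted p = 0.000597). Arhgap26 went from 4.18 and 4.02 to -1.72 and 0.20 in its 3′ UTR. A second BC004004 member fell by 3.69 ± 0.47, while its 3 other members changed by -0.94 to 0.41 and were not called. Nav2 and Pde6a also held 2 members each that fell.

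The rises in iNKT2 cells were fewer. Beside Camk2b and Ifrd1, Xpo4, an exportin gene, rose from -0.40 and -0.33 to 3.02 and 2.70 (3.23 ± 0.97, adjusted p = 0.0483), a call lost without any 1 of the 4 libraries (adjusted p = 0.159 to 0.215). Mgrn1, a ubiquitin ligase gene, rose from 2.13 and 2.72 to 4.66 and 4.76 (2.28 ± 0.35, adjusted p = 0.00145). Fosl2, an AP-1 subunit gene, and Ncbp3, which binds RNA caps, each held 2 members that rose, by 2.03 to 2.20. The type 2 list had 43 tested members in iNKT2 cells, with 3 lower (the Ccr9 pair and Ikzf2) and 1 higher (Satb1), beside 1.2% and 0.474% of all regions. Ikzf2, which encodes Helios, fell in its 3′ UTR from 4.01 and 3.72 to 2.03 and 2.41 (1.64 ± 0.20, adjusted p = 0.000451), a call lost without replicate 1 of either genotype, at a fall as low as 1.45 and so under 3-fold, and with a pseudocount of 1. Satb1, a genome organizer of T cells, rose in its 3′ UTR from 3.31 and 2.30 to 4.55 and 4.45 (1.69 ± 0.30, adjusted p = 0.00328). Chd3, a nucleosome remodeler gene, rose from 1.44 and 1.39 to 3.38 and 3.21 and was the 1 called of 21 tested chromatin regulator members. Its call was lost without replicate 2 of C57BL/6 iNKT2 or replicate 1 of Hivep3-/- iNKT2, and that of Satb1 without replicate 2 of C57BL/6 iNKT2 (change 1.19).

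In iNKT17 cells the 8 rises lay in 4 genes, Camk2b, Ifrd1, Ahnak and Zswim4. Ahnak held 2 of them, both wholly in coding sequence. The one at chr19:9016292-9016791 went from -1.06 and -0.09 to 2.35 and 2.70 (3.10 ± 0.38, adjusted p = 0.00217), and the one at chr19:9010609-9011108 from -0.59 and 0.74 to 2.61 and 2.95 (2.71 ± 0.41, adjusted p = 0.00677). In iNKT1 cells the first of these rose by 1.72 ± 0.38 (adjusted p = 0.0164), and in iNKT2 cells it was at -0.78 and -0.67 against 1.98 and 1.69, under the level for a test. The other 2 Ahnak members changed by 1.22 and 0.13 in iNKT17 cells. Among the falls, Slc5a11, a sodium-coupled inositol transporter gene, went from 3.23 and 3.59 to 0.19 and 1.57 (2.53 ± 0.39, adjusted p = 0.00677). Wasf2, an actin regulator of the WAVE complex, went from 3.20 and 2.87 to 1.32 and 0.40 (2.18 ± 0.32, adjusted p = 0.0059), and Asb2, a ubiquitin ligase adaptor gene, from 3.43 and 3.21 to 2.13 and 0.19. No member of the effector lists was called in iNKT17 cells by limma, beside 0.271% of all regions. Of 26 tested type 17 members 2 had an unadjusted limma p under 0.05, beside 15.8% of all regions.

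**Figure D5:**
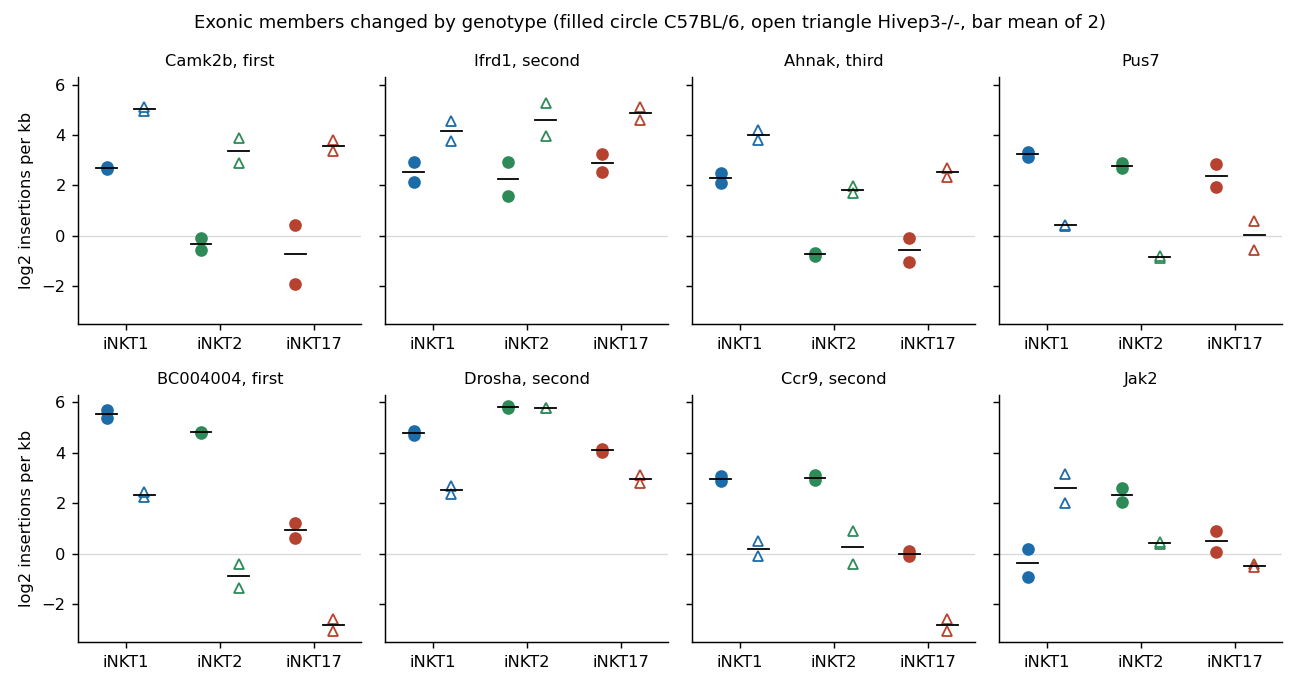
Each panel shows 1 exonic member with log2 insertions per kilobase on the vertical axis and the 3 subsets on the horizontal axis, filled circles for the 2 C57BL/6 libraries, open triangles for the 2 Hivep3-/- libraries and bars for their means. Triangles lie above circles in all subsets for Camk2b, Ifrd1 and Ahnak and below them for Pus7, BC004004 and Ccr9, while for Jak2 they lie above in iNKT1 and below in iNKT2 and iNKT17 cells.

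Few members of the effector lists were called, as were few of all regions. Of the 32 type 1 members none was called by limma in any subset. An unadjusted limma p under 0.05 was reached by 3 of 31, 12 of 23 and 5 of 20 tested in iNKT1, iNKT2 and iNKT17 cells. In the type 2 list limma called 2 of 41, 4 of 43 and 0 of 35 tested members in the same order. There 25, 20 and 8 had an unadjusted limma p under 0.05. The median change over the type 2 list was -0.38, 0.00 and 0.05, beside -0.02, 0.00 and -0.01 over all regions tested. Beside these and the next lists, 1.15%, 1.68% and 0.271% of all tested regions were called. Of all tested regions 17.8%, 25.3% and 15.8% had an unadjusted limma p under 0.05. Of the 30 type 17 members 1 was called, in iNKT1 cells: Abcb1a, a drug efflux pump gene, went from 2.93 and 2.65 to 1.10 and 0.99 (1.74 ± 0.24, adjusted p = 0.001). T cell receptor signaling members were called in no subset by limma (1 of 24, 8 of 25 and 3 of 21 with an unadjusted p under 0.05). On lists of other thymic cells, Aqp11, a channel gene listed with double-positive thymocytes, fell in its 3′ UTR from 4.30 and 3.96 to 2.47 and 2.08 in iNKT2 cells (1.85 ± 0.38, adjusted p = 0.00827). Of that list 5 of 10 genes had a region, with a summed linear level of 382 to 396 in C57BL/6 and 292 to 319 in Hivep3-/- iNKT2 libraries. The part of such cells in the Aqp11 fall was not tested. B cell markers, with 4 of 10 genes measured, held no member and summed to 81.2 to 110 in every library.

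An interaction term tested whether a member changed more in 1 subset than in another. It was called in 159 members between iNKT1 and iNKT2 cells, in 74 between iNKT1 and iNKT17 and in 48 between iNKT2 and iNKT17 cells, beside 3.06%, 1.42% and 1.02% of all regions tested, and in 219 members in all. The total was 144 without replicate 2 of Hivep3-/- iNKT1. Over all regions the iNKT1 against iNKT2 term was called in 1836, with the change higher in iNKT1 cells in 1234 and lower in 602. Of the 159 members, it was higher in iNKT1 cells in 104 and lower in 55, near that split. Its sign was opposite in the 2 subsets in 135 of the 159, which choosing large differences between the changes favors. In 2 of them both changes were called, in opposite directions, although the iNKT2 call was lost for Jak2 without any of 3 single libraries (adjusted p = 0.1 to 0.123) and for Neu4 without 1 library. Jak2, the cytokine receptor kinase, went from -0.94 and 0.20 to 3.17 and 2.01 in iNKT1 cells and from 2.06 and 2.61 to 0.37 and 0.44 in iNKT2 cells, and the changes differed by 4.89 ± 0.75 (adjusted p = 0.00308). Neu4, a sialidase gene, went from 0.81 and 0.36 to 2.57 and 2.91 in iNKT1 cells and from 2.96 and 3.21 to 1.52 and 1.10 in iNKT2 cells, a difference of 3.93 ± 0.51 (adjusted p = 0.00135). Stab2, a scavenger receptor gene, was at -0.42 and -0.41 against 1.28 and 1.12 in iNKT1 cells and fell from 3.29 and 2.98 to -0.13 and 0.84 in iNKT2 cells (difference 4.39 ± 0.41, adjusted p = 0.000315). The strongest Drosha member differed by -2.22 ± 0.23 between iNKT1 and iNKT2 cells (adjusted p = 0.000498), and Map3k14 by 1.95 ± 0.23 (adjusted p = 0.001).

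Of the 23 genes with 5 or more members, Ifrd1 had 3 called members in each subset and BC004004 had 1 in iNKT1 and 2 in iNKT2 cells. Satb1 and Plxdc1 had 1 each in iNKT2 cells, and the other 19 had no called member. Levels within 1 gene differed widely: the 7 Myh9 members had C57BL/6 iNKT1 means from 1.69 to 6.55, and the 6 Chd7 members from 2.29 to 6.75. The 5 members of Tnfaip3, which encodes the NF-κB inhibitor A20, had C57BL/6 iNKT1 means of 5.21 to 6.09 and median changes of 0.30, 0.29 and 0.52 in iNKT1, iNKT2 and iNKT17 cells.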

How the data were processed

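ATAC-seq libraries of 3 thymic iNKT subsets of 2 genotypes, 2 libraries each, were taken from 1 table of the whole series. The authors trimmed reads to 50 bp with Trimmomatic 0.39, aligned them to mm10 with the ENCODE pipeline, counted insertions in 500-bp regions with chromVAR and normalized them with voom, and the deposited values are log2 normalized insertions per kilobase. Read counts were not used here, so the depth behind a value is unknown. Regions were annotated with GENCODE vM21 on GRCm38.p6, which also gave the sequences (pysam 0.24.0, samtools 1.23.1).

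Python 3.11.15, numpy 2.4.6, pandas 2.3.3, scipy 1.17.1 and matplotlib 3.10.9 were used. limma 3.58.1 in R 4.3.3 fitted 6 group means with a variance trend (6 residual and 7.17 prior degrees of freedom). A region was tested when the linear mean of either compared group was at least 5, and called at a Benjamini-Hochberg adjusted p under 0.1 over all tested regions and at least 3-fold. The script was tested on simulated data. No pseudocount was added in the main analysis.

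Named by rule were the leading 8 members of each C57BL/6 subset preference, the leading 5 rises and 5 falls of each genotype comparison, members of the gene lists that were called, genes with the most members, members called alike in all 3 subsets and the 3 largest interactions. Members called in 2 subsets and genes with several called members were named after their values were seen. The members and lists were chosen with earlier results of these data known. Samples were grouped by their titles. The titles' mouse numbers are shared across groups, while the study speaks of pools. Deviations from the group means correlated between same-numbered libraries at 0.12 to 0.167 within a genotype and 0.113 to 0.171 within a subset. Same-numbered libraries that shared neither genotype nor subset correlated at 0.0911 to 0.174, a range that covers both. Other filters, pseudocounts of 1 and 5, renewed quantile normalization, no variance trend, a 2-fold threshold, a replicate block, other definitions of the members and leaving out each library were tried. Some members that met the naming rule are not reported here.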

Additional observations from a re-analysis of the deposited data

Results flagged for a closer look

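The change between the genotypes differed between subsets, by the interaction term of the limma model, in 159 members (iNKT1 against iNKT2), 74 (iNKT1 against iNKT17) and 48 (iNKT2 against iNKT17). The named members below were called in at least 1 subset and differed by this term at an adjusted p under 0.1. Each value is the change in the first subset minus that in the second, on the log2 scale.

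For iNKT1 minus iNKT2 the values were -2.81 for Satb1, -2.35 for Drosha, -2.27 for Abcb1a, -2.24 for Chd3, -2.22 for Drosha, 1.65 for Gys2 and 1.66 for Tnip1. Further values were 1.95 for Map3k14, 2.49 for BC004004, 2.88 for BC004004, 3.53 for Bpgm, 3.93 for Neu4, 3.98 for Hspa12b and 4.05 for Pla1a. Further values were 4.12 for Spesp1, 4.13 for Kdelr2, 4.39 for Stab2 and 4.89 for Jak2.

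For iNKT1 minus iNKT17 they were -2.18 for Ahnak, -2.14 for Ccr9, -1.95 for Trio, -1.80 for Abcb1a, 1.87 for Stab2, 2.82 for Pla1a and 2.97 for Spesp1. Further values were 3.19 for Neu4, 3.91 for Bpgm, 3.92 for Jak2, 4.44 for Kdelr2 and 4.46 for Pla1a.

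For iNKT2 minus iNKT17 they were -5.64 for Hspa12b, -3.08 for Ccr9, -3.06 for BC004004, -2.79 for Trio, -2.52 for Stab2, -1.93 for Pde6a and -1.69 for Ikzf2. Further values were 2.02 for Slc5a11 and 2.70 for Chd3.

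Drosha, BC004004 and Pla1a appear with more than 1 member where a name is repeated. The reason for these differences was not tested.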

How the results depend on the processing

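The direction of all 100 single results held under every alternative that tested them. With no filter on low levels 120 members changed between the genotypes in iNKT1 and 49 in iNKT17 cells. With a filter on the mean of the 12 libraries (5 or more) the counts open in iNKT1, iNKT2 and iNKT17 cells only were 142, 105 and 159 in C57BL/6 and 164, 122 and 144 in Hivep3-/- cells, and 19 members changed on the average of the subsets. A pseudocount of 1 gave 18 on that average and kept 85 of the 100 single calls. A pseudocount of 5 kept 28 of them, and gave 6, 8 and 0 members changed in iNKT1, iNKT2 and iNKT17 cells, 1 on the average, 59, 40 and 131 open in 1 subset only in C57BL/6, 90, 45 and 111 in Hivep3-/- cells, and 23 whose change differed between subsets; it shrinks the differences of low members by construction. A 2-fold threshold gave 182, 222, 67 and 139 changed, 359 and 333 open in iNKT1 and iNKT2 cells only in C57BL/6, 399 and 372 in Hivep3-/- cells, and 419 differing. With midpoints inside an exon (3.57% of regions) the counts were 41, 55, 10 and 19 changed, 118, 99 and 142 open in 1 subset only in C57BL/6, 134, 97 and 123 in Hivep3-/- cells, and 137 differing. Start sites over 2 kb away left 4.78% of regions as members and moved no such count by over 1.5 times.

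Leaving out 1 library gave 47 to 83, 75 to 92 and 12 to 30 members changed in iNKT1, iNKT2 and iNKT17 cells, 37 to 51 on the average, 208 to 230, 184 to 198 and 238 to 248 open in 1 subset only in C57BL/6, 242 to 253, 189 to 203 and 214 to 229 in Hivep3-/- cells, and 144 to 252 differing. The low iNKT1 count and the low count of differing members came without replicate 2 of Hivep3-/- iNKT1, and the iNKT17 extremes without replicate 1 of C57BL/6 and of Hivep3-/- iNKT17. The cause of these shifts was not tested. The lone library of a group was then assumed to vary like the others.

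With the replicate number as a block, 73, 94 and 20 members changed, 40 on the average, and 270 differed between subsets, and all 100 single calls were kept. No count of calls moved by over 1.5 times with the block. Low members, near the lowest value of a library, limit the precision.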
